A study of Mus musculus with 8 samples.

Results

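The 34 genes described here encode glycoproteins, proteoglycans and crosslinking enzymes of the extracellular matrix. They were taken from the deposited gene tables by symbol, and each symbol stood on 1 of the 55492 rows. Polyadenylated RNA had been sequenced in 8 libraries from YUMM5.2, a mouse melanoma cell line whose strain is given as C57B/6J. Of these, 4 libraries were made after 20 h with DMSO, the solvent control, and 4 after 20 h with 4-OI, a cell-permeable form of itaconate whose treatment label reads "Itaconate-treated". In this field 4-OI stands for 4-octyl itaconate, an ester of the macrophage metabolite itaconate. The sources used here give no dose. All 8 libraries come from 1 cell line, and no genotype other than the strain is stated for either group. The comparison asks which matrix transcripts differed between 4-OI and DMSO.

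The extracellular matrix is built in layers that depend on each other. Fibronectin is assembled at the cell surface and serves as a template for fibrillin microfibrils and collagen, and fibulins and EMILIN-1 tie microfibrils to elastin. Matricellular proteins such as periostin, tenascin-C and the thrombospondins bind this scaffold and cell receptors without being its main load-bearing parts, proteoglycans hold water and growth factors, and nidogens, perlecan and agrin connect the networks of basement membranes. Lysyl oxidases oxidise lysines of collagen and elastin so that chains become covalently crosslinked, and lysyl hydroxylases prepare the collagen lysines on which many crosslinks form. In melanoma, high expression of such genes is known from invasive, dedifferentiated tumour states.

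With 4-OI, matrix transcripts were mostly lower. Of the 34 genes, 30 passed the filter on low counts, and 20 of these were lower, 2 were higher and 8 were not called. Among the 13531 genes tested, 19.6% were lower and 19.3% were higher, and 38.8% changed in either direction. In such bulk RNA, fewer cells of a type and less RNA per cell cannot be told apart. Calls are those of edgeR's quasi-likelihood test over all genes at a Benjamini-Hochberg adjusted p under 0.05. The median log2 fold change (4-OI against DMSO) was -0.24 over the 30 genes and 0.00 over all genes tested. Falls of at least 1.5-fold were seen in 7 of the 30 (Postn, Dcn, Bgn, Tnc, Loxl2, Fbn1 and Efemp1), against 2.56% of all genes. The higher members were Nid1 and Emilin1. In each of the 20 lower genes every 4-OI library lay below every DMSO library, which was so for 18% of all genes, and in both higher genes every 4-OI library lay above, which was so for 17.4%.

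Promoter sequence is shown for the 3 lower genes with the largest falls and for the higher gene with the largest rise, among called members with an entry in the table of promoters and at least 150 bases free of annotated exons. It is RefSeq sequence of GRCm38.p6, read in the direction of transcription, from 250 bases before a start site up to that site. For Postn and Tnc, which have 2 RefSeq starts each, the start nearest to where transcription of the GENCODE gene begins is used. For Nid1 the last 51 bases were left out because GENCODE places an exon there. Capitals mark matches, on either strand, to any of 8 short motifs: the TATA box as TATAAA, the SP1 site as GGGCGG, the CCAAT box, the TEAD site as GGAATG, the AP-1 site as TGANTCA, the antioxidant response element as TGACNNNGC, and the hypoxia response core in the form ACGTG or in the form GCGTG. The matches in Bgn nearest the start overlap each other, and none overlaps in the other 3 sequences.
Postn (chr3:54360857-54361106, plus strand): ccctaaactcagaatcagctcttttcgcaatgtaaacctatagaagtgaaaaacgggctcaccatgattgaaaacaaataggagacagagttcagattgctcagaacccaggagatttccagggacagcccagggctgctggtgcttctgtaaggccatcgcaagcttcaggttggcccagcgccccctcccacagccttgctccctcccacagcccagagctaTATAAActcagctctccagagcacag
Bgn (chrX:73483351-73483600, plus strand): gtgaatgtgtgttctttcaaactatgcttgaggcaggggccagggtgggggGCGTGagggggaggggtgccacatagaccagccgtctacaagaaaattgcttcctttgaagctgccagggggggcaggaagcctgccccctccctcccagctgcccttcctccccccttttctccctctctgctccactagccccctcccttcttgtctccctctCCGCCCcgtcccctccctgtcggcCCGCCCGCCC
Tnc (chr4:64047016-64047265, minus strand): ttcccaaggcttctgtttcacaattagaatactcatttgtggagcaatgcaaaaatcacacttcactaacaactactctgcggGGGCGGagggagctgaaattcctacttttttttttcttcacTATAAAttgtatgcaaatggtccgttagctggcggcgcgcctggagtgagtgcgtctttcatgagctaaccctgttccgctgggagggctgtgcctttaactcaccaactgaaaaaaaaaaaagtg
Nid1 (chr13:13437352-13437550, plus strand): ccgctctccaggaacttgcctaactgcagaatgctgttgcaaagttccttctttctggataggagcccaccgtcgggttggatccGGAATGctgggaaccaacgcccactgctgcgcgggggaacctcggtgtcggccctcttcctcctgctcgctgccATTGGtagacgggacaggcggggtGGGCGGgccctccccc

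The 3 genes that fell and the gene that rose share no single marked motif. Postn has TATAAA 26 bases before the start, and Tnc has TATAAA at 126 and GGGCGG at 167 bases. Bgn carries GGGCGG on the opposite strand in 3 places and GCGTG at 199 bases. In Nid1, GGAATG begins 165 bases, CCAAT (opposite strand) 91 bases and GGGCGG 67 bases before the start. In the whole table, 21 of the 34 genes had an entry in RefSeq's promoters, 13 of them lower, 2 higher, 5 tested but not called and 1 not tested. GGGCGG stood within 250 bases of a start in 10 of the 13 lower genes, 1 of the 2 higher and 4 of the 5 not called, against 35.4% of the 27025 genes in the table. TATAAA stood in 3 of the 13 lower genes against 14.3%, GCGTG in 5 of 13 against 30.9%, CCAAT in 4 of 13 against 37.5%, and TGANTCA (7.82% of genes) and TGACNNNGC (11.5%) in 1 of 13 each, Efemp1 and Postn, the latter at its other start. ACGTG (18.5%) and GGAATG (14.4%) were in none of the 13. These are matches of letters only, and no binding was measured.

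Per transcript length, the tested matrix genes covered more than 3 orders of magnitude. Spp1, which encodes osteopontin, a secreted phosphoprotein that binds integrins and CD44, was the most abundant at 3099 ± 70.1 TPM in DMSO (SD, n = 4), the 26th of all genes. It was followed by Sparc (1423 ± 67 TPM), Thbs1 (743 ± 19.3), Fn1 (399 ± 15.5) and Thbs2 (313 ± 9.94), each separated from the next by far more than the SDs. Efemp2 (124 ± 5.37 TPM) and Tnc (104 ± 1.07) came next. Below them neighbours were often closer than their spread: Nid1 (54.7 ± 4.92), Loxl3 (54.3 ± 2.39), Lox (53.9 ± 3.25) and Fbln5 (53.7 ± 2.47 TPM) could not be put in order. Dcn (1.66 ± 0.319 TPM) and Fbn2 (0.265 ± 0.0854 TPM) were the least abundant of the tested genes. The order of all 34 genes in DMSO was the same in the deposited FPKM. Within a library, TPM is FPKM rescaled by a single factor, so apart from averaging this was given in advance.

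**Figure D1:**
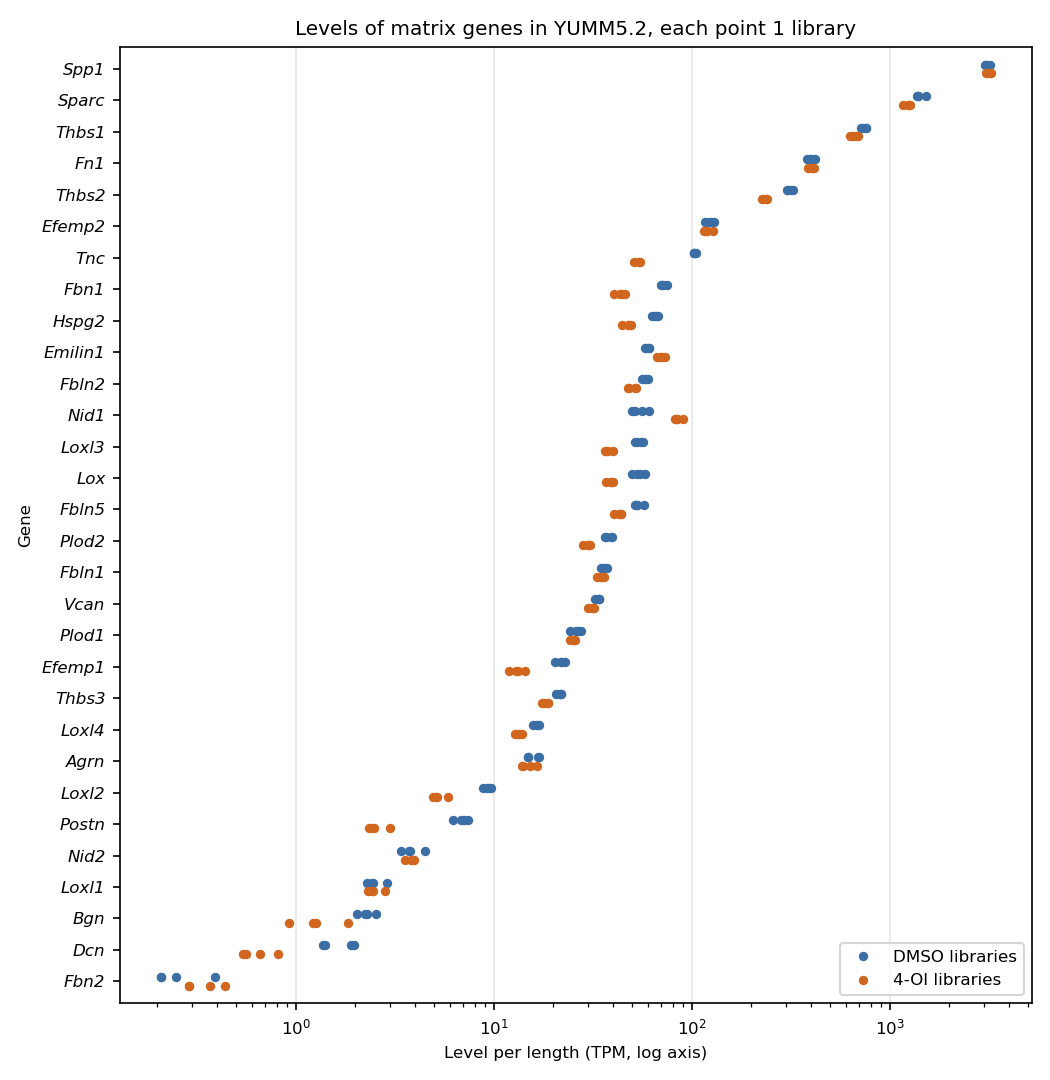
Level per length of the 30 tested matrix genes (TPM, log axis), 1 point per library, with DMSO in blue and 4-OI in orange. Spp1, Sparc and Thbs1 are at the top in both groups, and the orange points of Tnc, Fbn1, Postn, Bgn and Dcn lie clearly left of the blue ones while those of Nid1 and Emilin1 lie right.

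Summed over the 34 genes, the matrix made up 6766 to 7182 TPM in the DMSO libraries and 6404 to 6608 TPM in the 4-OI libraries. Spp1 and Sparc held 64.9 to 65.7% of that sum with DMSO and 67.4 to 68.7% with 4-OI. As a share of the counts, the genes made up 1.34 to 1.40% with DMSO and 1.18 to 1.24% with 4-OI. Neither sum overlapped between the groups. The order of mean levels also changed in places: Nid1 went from the 12th to the 7th place, Tnc from the 7th to the 9th and Fbn1 from the 8th to the 12th. Some of these places are not firm. Nid1 with DMSO could not be ordered among its neighbours, and Fbn1 with 4-OI (43.5 ± 2.39 TPM, SD) was close to Fbln5 (42.8 ± 1.7).

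The line's labels were checked against markers. Of 10 melanocyte lineage markers only Mitf passed the filter; Tyr, Tyrp1, Dct, Mlana, Kit and Sox10 had at most 2 counts in any library, while Pmel, S100b and Ednrb had at most 8. Mitf, the lineage's master regulator, was higher with 4-OI (6.42 ± 0.414 and 9.98 ± 0.535 CPM, SD, n = 4). It made up most of the TPM summed over that list (2.29 ± 0.104 TPM with DMSO and 3.45 ± 0.156 with 4-OI). Apart from Mitf, the list did not mark the line as melanocytic in either group. Mesenchymal genes that also mark fibroblasts were well expressed: Twist2 and Pdgfra had 69.7 ± 1.42 and 31.3 ± 1.34 TPM with DMSO, while Dpt, Pi16, Thy1, Fap and Tcf21 had at most 10 counts in any library. The fibroblast list's summed level was 118 to 123 TPM with DMSO and 113 to 119 with 4-OI. Summed levels with DMSO and 4-OI were 2.51 to 3.15 and 3.69 to 4.14 TPM for the melanocyte list, 2.75 to 3.19 and 2.24 to 3.02 for the immune list, 0.07 to 0.99 and 0.04 to 0.28 for the endothelial list, and 2.92 to 4.01 and 3.02 to 4.52 for the keratinocyte list. Within the fibroblast list Pdgfra was higher (log2 fold change 0.10), Pdgfrb lower (-0.48) and Twist2 not called, and the part of these and of Mitf in the matrix results was not tested. Of the 8 immune, 6 endothelial and 6 keratinocyte markers, Cd68 and Krt10 passed the filter, neither of them called, and Ptprc, Adgre1, Pecam1, Kdr, Krt5 and Krt14 had at most 8 counts in any library. Total counts ranged from 22962963 to 31361677 per library. Across the 30 genes, DMSO replicate 3 was the highest of its group for 24 and 4-OI replicate 4 the lowest of its group for 17. Without both libraries, 20 genes were still lower and 3 were higher, the added one being Fn1.

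**Figure D2:**
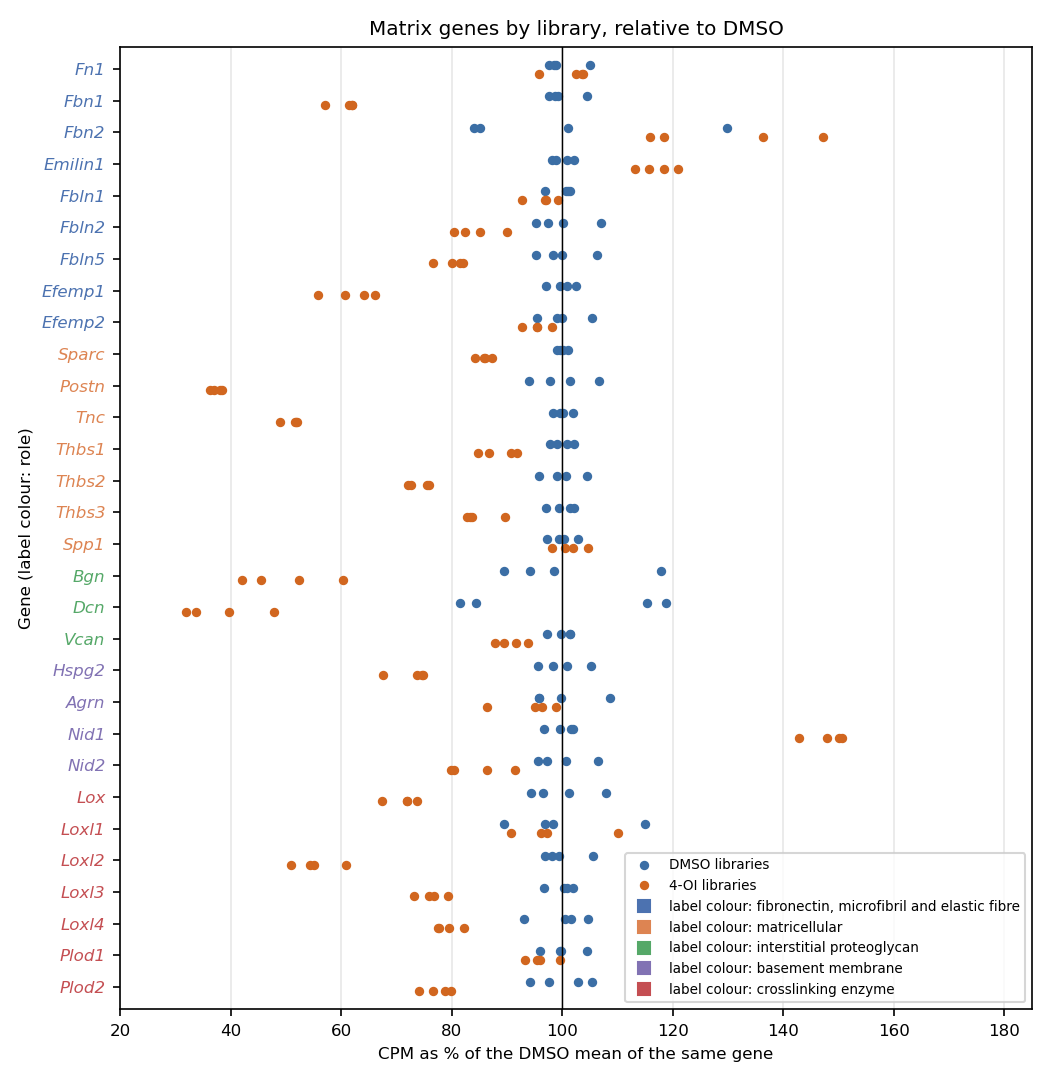
CPM of each tested matrix gene in each library as a percentage of that gene's DMSO mean, DMSO in blue and 4-OI in orange, with gene names coloured by role. Orange points of 20 genes lie wholly left of the blue ones, those of Emilin1 and Nid1 wholly right, and those of 8 genes such as Fn1, Spp1 and Plod1 overlap.

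The gene of fibronectin was not called, while that of fibrillin-1 fell. Of the 12 genes of fibronectin, microfibrils and elastic fibres, 9 were tested, of which 4 were lower, 1 was higher and 4 were not called. Over all genes tested, 19.6% were lower and 19.3% were higher. Fn1 (chromosome 1, 71585520 to 71653200, GRCm38) had 1775, 1769.7, 1885 and 1751 CPM (counts scaled to a common library size, after TMM) in the DMSO libraries and 1839, 1858, 1862 and 1719 CPM in the 4-OI libraries, and the groups overlapped. Its log2 fold change was 0.02 ± 0.03 (SE, edgeR adjusted p = 0.647). Without DMSO replicate 3 and 4-OI replicate 4, which were the highest and the lowest library for Fn1, it was called higher by 0.07 (edgeR adjusted p = 0.0128). Fbn1, the main fibrillin of microfibrils (chromosome 2, 125300594 to 125507993), had 432, 427, 457 and 434 CPM with DMSO and 271, 271, 269 and 249.7 with 4-OI. All 4 libraries with 4-OI were far below those with DMSO, and the log2 fold change was -0.72 ± 0.03 (SE, edgeR adjusted p = 1.18e-13). GENCODE places exons of Gm9913 on the other strand over 20.1% of the exon bases of Fbn1. Fbn2, the fibrillin typical of embryonic tissue, was low, with 1.64, 1.66, 1.97 and 2.53 CPM and 2.66, 2.87, 2.26 and 2.31 CPM. Its log2 fold change of 0.35 was not called (edgeR adjusted p = 0.0881), but without DMSO replicate 4, the highest of its group, it was 0.52 and called (edgeR adjusted p = 0.0172).

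EMILIN-1, a glycoprotein found where elastin meets microfibrils, is encoded by the only 1 of these 9 genes that was called higher. Emilin1 (chromosome 5, 30913402 to 30921277) had 151, 155, 152 and 157 CPM with DMSO and 178, 186, 182 and 174 with 4-OI, a log2 fold change of 0.23 ± 0.03 (SE, edgeR adjusted p = 6.53e-07). The groups did not overlap. The fibulins, glycoproteins that bridge elastin and microfibrils, split into genes that fell and genes that were not called. Efemp1, the gene of fibulin-3, had 24.4, 23.5, 24.8 and 24.1 CPM with DMSO and 15.5, 13.5, 16 and 14.7 with 4-OI, a log2 fold change of -0.70 ± 0.05 (SE, edgeR adjusted p = 2.55e-09). Fbln5, whose product is needed for elastic fibre assembly, went from 77.7 ± 3.6 to 62.3 ± 1.86 CPM (SD, n = 4; log2 fold change -0.32). Fbln2 fell less, from 147 ± 7.55 to 124 ± 6.13 CPM (log2 fold change -0.24). Fbln1 (log2 fold change -0.05, edgeR adjusted p = 0.237) and Efemp2, the gene of fibulin-4, which helps lysyl oxidase reach elastin (log2 fold change -0.07, edgeR adjusted p = 0.0901), were not called. For Efemp2 that call turned on DMSO replicate 4, without which it was called lower with a value of -0.09 (edgeR adjusted p = 0.0318).

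Elastin and its small microfibril partners were close to the limit of detection. Eln had 1 count in the 4 DMSO libraries together and 1 in the 4-OI libraries together, and Mfap2 had 0 and 2. A count of 0 allows up to 3 counts, or 0.0957 to 0.1306 CPM in these libraries, which covers counting error only. Mfap5, the gene of a second microfibril-associated glycoprotein, had counts of 2, 4, 2 and 3 with DMSO and 1, 0, 1 and 2 with 4-OI. Permuting its CPM exactly over all 70 arrangements (two-sided) gave p = 0.0286, which is the lowest value this design can reach. In CPM every 4-OI library was below every DMSO library. In counts the groups met at 2, so this separation rests on the library totals. Adjusting over the 3 genes below the filter with any count gave 0.0858 (Benjamini-Hochberg), the lowest it could give, since Eln and Mfap2 have too few counts to separate the groups. In all, the difference rests on 11 counts with DMSO and 4 with 4-OI. The test gave p = 0.429 for Mfap2 and p = 1 for Eln (exact permutation), and no difference in these 2 genes was detectable at this depth. Lum, the gene of the small proteoglycan lumican, had 0 counts in all 8 libraries.

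Of the 7 matricellular genes 6 were lower, against 19.6% of all genes tested. The matricellular genes held both the largest fall of all members and several of the most abundant transcripts. Postn (chromosome 3, 54361109 to 54391037), which encodes periostin, a collagen-binding protein that promotes crosslinking, had 12.6, 13.6, 14.3 and 13.1 CPM with DMSO and 5.1, 4.96, 4.86 and 5.16 with 4-OI. The 4 libraries of each group were close together and far from the other group, and the log2 fold change was -1.41 ± 0.07 (SE, edgeR adjusted p = 1.33e-12). Tnc (chromosome 4, 63959785 to 64047015), the gene of tenascin-C, an anti-adhesive glycoprotein of wounds and tumours, was more abundant per length (104 ± 1.07 against 6.89 ± 0.528 TPM with DMSO) and went from 508, 514, 526 and 517 CPM to 267, 268, 269 and 253 CPM. Its log2 fold change was -0.97 ± 0.02 (SE, edgeR adjusted p = 6.38e-17). Sparc, one of the most abundant transcripts, whose product binds collagen, went from 1814, 1835, 1851 and 1825 CPM to 1573, 1600.3, 1575 and 1541 CPM, a small but clear separation (log2 fold change -0.22, edgeR adjusted p = 2.1e-07).

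Thrombospondins are multimeric glycoproteins, of which thrombospondin-1 and -2 restrain blood vessel growth and thrombospondin-1 can activate latent TGF-beta. All 3 measured genes were lower. Thbs1 had 3042, 2988, 3077 and 2948 CPM with DMSO and 2769.9, 2616, 2735 and 2555 with 4-OI, a log2 fold change of -0.18 ± 0.03 (SE, edgeR adjusted p = 4.6e-05). Thbs2 fell more, from 1226, 1289.6, 1337 and 1269 CPM to 971, 929, 967 and 923 CPM (log2 fold change -0.43, edgeR adjusted p = 1.76e-10). Thbs3 went from 42 ± 0.953 to 35.7 ± 1.37 CPM (SD, n = 4; log2 fold change -0.24). Spp1 stood apart from the other matricellular genes, with 2457, 2533, 2598 and 2510.5 CPM with DMSO and 2574, 2479, 2538 and 2644 with 4-OI. Its groups overlapped and its log2 fold change was 0.02 ± 0.03 (SE, edgeR adjusted p = 0.596). Exons of Gm42793 on the same strand cover 18.8% of the exon bases of Spp1.

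Among interstitial proteoglycans, the small leucine-rich members Bgn and Dcn were low and fell by the largest factors. Bgn (chromosome X, 73483602 to 73495933) encodes biglycan, a collagen-binding proteoglycan that also signals through Toll-like receptors. It had 3.12, 2.83, 3.73 and 2.98 CPM with DMSO and 1.66, 1.91, 1.33 and 1.44 with 4-OI, a log2 fold change of -0.99 ± 0.15 (SE, edgeR adjusted p = 2.13e-05). Dcn, the gene of decorin, which regulates collagen fibril width and binds growth factors, had 1.45, 1.5, 2.11 and 2.05 CPM and 0.85, 0.567, 0.599 and 0.705 CPM (counts of 38, 36, 48 and 64 and of 22, 16, 18 and 22). Its log2 fold change was -1.39 ± 0.21 (SE, edgeR adjusted p = 2.66e-05). Both pairs of groups were separate, but the spread between libraries was wide for these low counts. Vcan, the gene of versican, a large chondroitin sulfate proteoglycan that binds hyaluronan, had 33.5 ± 0.828 TPM with DMSO against 2.27 ± 0.205 TPM for Bgn, and moved less, from 234 ± 4.62 to 212 ± 6.21 CPM (SD, n = 4; log2 fold change -0.14, edgeR adjusted p = 0.000192). In the deposited TPM, tested with limma on log2(TPM + 1), Vcan was not called (log2 fold change -0.09, limma adjusted p = 0.0823).

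Basement membrane genes moved in opposite directions. Nid1 (chromosome 13, 13437551 to 13512269), the gene of nidogen-1, which links laminin to collagen IV, had 196, 199.8, 200.4 and 190.3 CPM with DMSO and 296, 291, 295 and 281 with 4-OI. Each 4-OI library was far above all DMSO libraries, and the log2 fold change of 0.56 ± 0.03 (SE, edgeR adjusted p = 6.51e-13) was the largest rise among the members. Its relative Nid2 was less abundant per length (3.86 ± 0.451 TPM against 54.7 ± 4.92 TPM with DMSO) and went the other way, with 11.6, 12, 12.7 and 11.4 CPM and 10.9, 9.53, 10.3 and 9.58 CPM, a log2 fold change of -0.24 ± 0.06 (SE, edgeR adjusted p = 0.00439). That fall was not seen in TPM (limma log2 fold change -0.01, adjusted p = 0.966). The average transcript length that the authors' estimate implies for Nid2 (count over FPKM) was 3837 to 4492 bases with DMSO and 3295 to 3926 with 4-OI, which is -0.23 on the log2 scale between the means, and the ranges overlapped. Exons of Rtraf lie on the other strand over 8.45% of the exon bases of Nid2.

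Hspg2, which encodes perlecan, the large heparan sulfate proteoglycan of basement membranes (chromosome 4, 137468769 to 137570630), fell from 629, 611, 673 and 645 CPM to 477, 478, 472 and 432 CPM. The groups were separate, with 4-OI replicate 4 the lowest, and the log2 fold change was -0.46 ± 0.03 (SE, edgeR adjusted p = 9.3e-10). Agrn, the gene of agrin, another heparan sulfate proteoglycan, had 66.8 ± 4.06 and 62.9 ± 3.64 CPM (SD, n = 4) and was not called (log2 fold change -0.09, edgeR adjusted p = 0.134).

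Of the 7 crosslinking enzymes 5 were lower, and none was higher, against 19.6% lower and 19.3% higher among all genes tested. Lox, the founding lysyl oxidase, had 169, 177, 189 and 165 CPM with DMSO and 126, 118, 129 and 126 with 4-OI, with a wide gap between the groups (log2 fold change -0.49 ± 0.04, SE, edgeR adjusted p = 2.05e-09). Loxl2 (chromosome 14, 69609068 to 69695834), an oxidase of collagen IV linked to invasion in several tumours, fell furthest of the enzymes, from 30.3, 30.7, 32.6 and 29.9 CPM to 18.8, 15.7, 17 and 16.8 CPM. Its log2 fold change was -0.85 ± 0.05 (SE, edgeR adjusted p = 1.1e-10). Loxl3, an oxidase known to support melanoma cells, went from 89.7 ± 2.02 to 68.4 ± 2.21 CPM (SD, n = 4; log2 fold change -0.39), and 11.6% of its exon bases lie over exons of Htra2 on the other strand. Loxl4 went from 38.6 ± 1.93 to 30.6 ± 0.826 CPM (log2 fold change -0.33). Loxl1, the oxidase tied to elastic fibres, was not called, with 4.95, 5.36, 6.36 and 5.44 CPM and 5.02, 6.09, 5.32 and 5.38 CPM, and its groups overlapped (log2 fold change -0.01 ± 0.09, SE, edgeR adjusted p = 0.927).

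The lysyl hydroxylases differed as well. Plod2, which hydroxylates lysines in the ends of collagen chains and is a known hypoxia-induced gene, had 86.1, 93.9, 96.3 and 89.1 CPM with DMSO and 70, 67.7, 72 and 72.9 with 4-OI (log2 fold change -0.37 ± 0.04, SE, edgeR adjusted p = 7.11e-08). Plod1, which acts on lysines within the triple helix, had 52.5, 55, 52.4 and 50.5 CPM and 52.4, 50.5, 50.2 and 49.1 CPM, with overlapping groups (log2 fold change -0.06, edgeR adjusted p = 0.216).

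**Figure D3:**
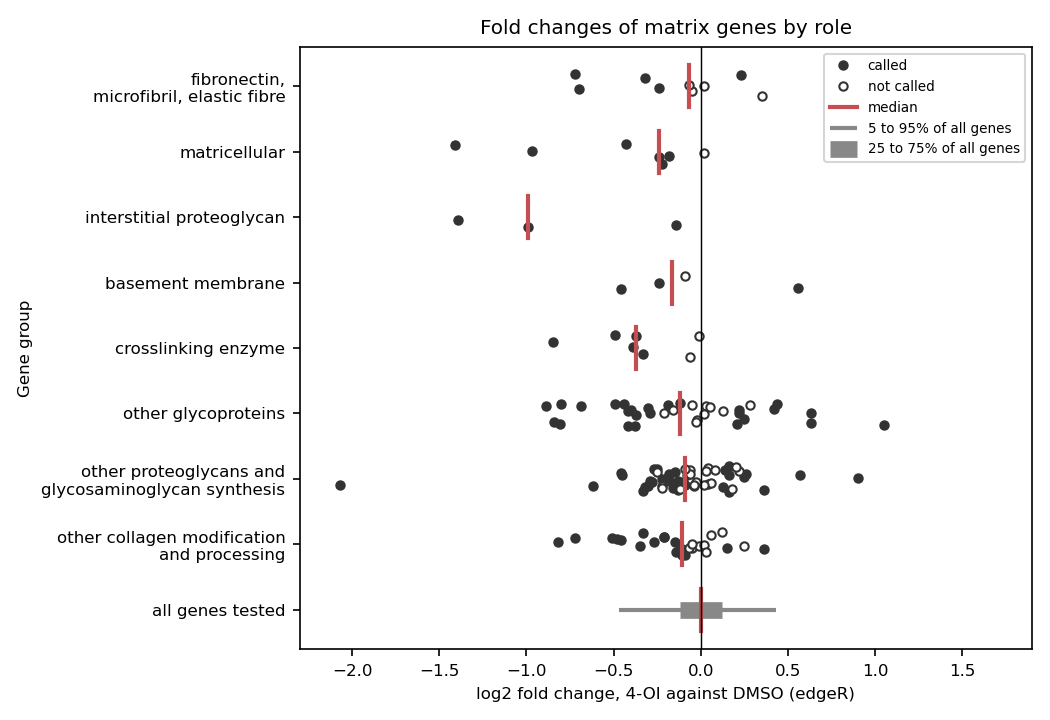
Log2 fold changes (4-OI against DMSO, edgeR) of the tested members by role, of the 3 lists of other matrix genes and of all genes tested, with filled points for called genes, open points for genes not called and a red line at each median. All 3 tested interstitial proteoglycans and all 7 crosslinking enzymes lie at or below 0, and the grey bars give the 25 to 75% and 5 to 95% ranges of all 13531 genes.

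Differences between members of 1 family were tested directly, as the log2 ratio of their CPM in each library, which does not depend on the scaling between libraries; the ratios themselves are not per length. Of 26 pairs in 6 families, the ratio did not overlap between the groups in 22, each with an exact two-sided permutation p of 0.0286, the smallest possible with 4 against 4, and 0.0338 after Benjamini-Hochberg adjustment over the 26 pairs. Among all pairs of the 13479 tested genes with a count in every library, 33.7% had ratios that did not overlap between the groups. Of the 30 tested members 20 were lower and 2 higher, against 38.8% of all genes called in either direction. The larger share among the 26 pairs is therefore not evidence separate from those calls. The 26 pairs are not independent, since the fibulins and the lysyl oxidases give 10 each from 5 genes. The families and the test were chosen after the values had been seen. The log2 ratio of Nid1 to Nid2 was 4.04 ± 0.04 with DMSO and 4.85 ± 0.07 with 4-OI (SD, n = 4). The ratio of Plod1 to Plod2 rose by 0.31 on the log2 scale, and that of Loxl1 to Loxl2 by 0.84. Fbn1 lost ground to Fbn2, with log2 ratios of 7.83 ± 0.29 and 6.72 ± 0.14, so that Fbn2 made up 0.369% of the fibrillin TPM with DMSO and 0.792% with 4-OI. Efemp1 also lost ground to each of the other 4 fibulins, and its share of the fibulin TPM went from 7.40% ± 0.30 to 5.05% ± 0.471 (SD, n = 4).

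The 4 pairs whose ratios overlapped were Fbln1 to Efemp2, Thbs1 to Thbs3, Lox to Loxl3 and Loxl3 to Loxl4. For Lox and Loxl3, which held 39.5% and 39.8% of the lysyl oxidase TPM with DMSO and 39.7% and 38.7% with 4-OI, the ratio moved by -0.10 on the log2 scale (exact permutation p = 0.0857, adjusted 0.0969). Thbs1 moved by 0.06 against Thbs3 (exact permutation p = 0.143, adjusted 0.155). With these numbers of libraries, small differences in such ratios cannot be told from none.

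**Figure D4:**
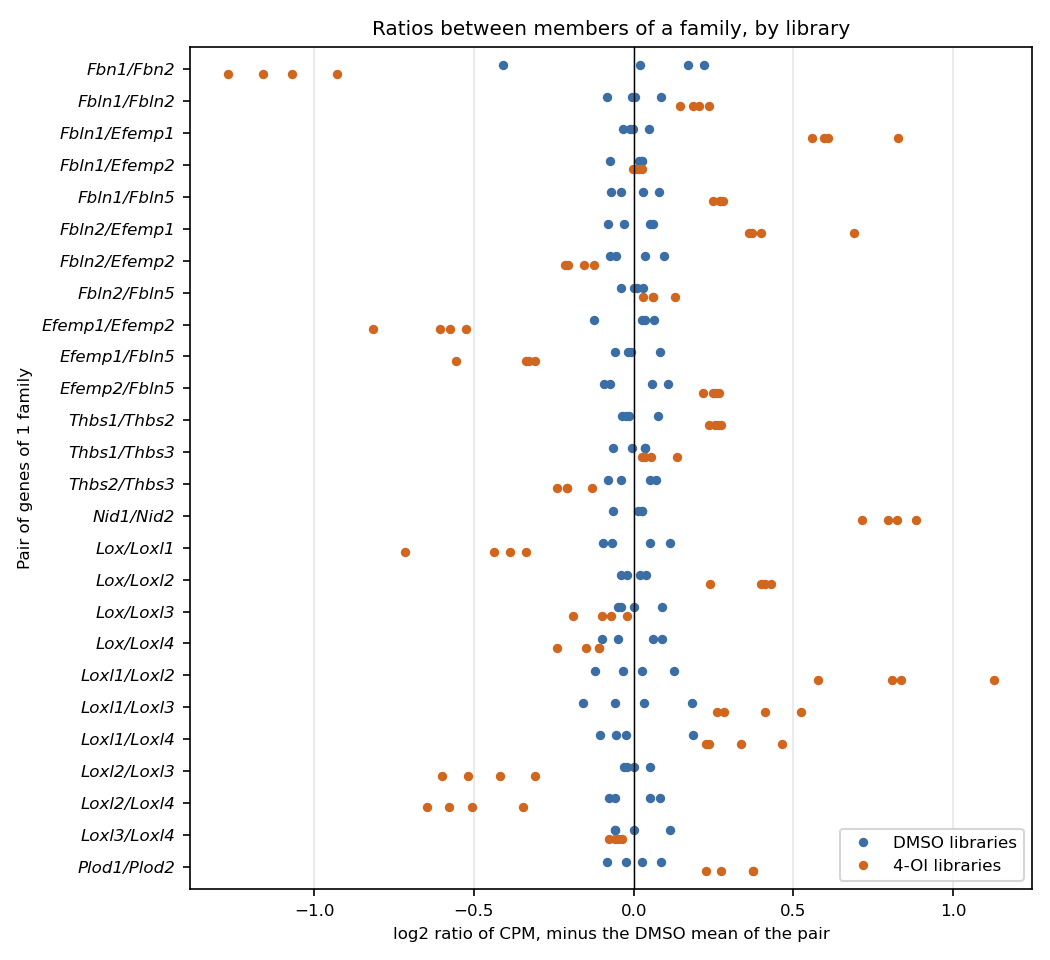
Log2 ratio of CPM between 2 genes of 1 family in each library, minus the DMSO mean of that pair, for 26 pairs. DMSO libraries (blue) sit around 0, and the 4-OI libraries (orange) are shifted right for Nid1/Nid2 (by 0.81) and Loxl1/Loxl2 (by 0.84) and left for Fbn1/Fbn2 (by -1.11).

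The 3 lists of other genes of matrix production held both lower and higher genes. Among all genes tested, 19.6% were lower and 19.3% were higher. Among other matrix glycoproteins, 60 of the 65 listed symbols were found, and 35 of these genes were tested. Of the 35, 16 were lower and 9 higher, and the median log2 fold change was -0.12. Ntn1, the gene of netrin-1, went from 67.3 ± 2.07 to 36.3 ± 0.997 CPM (SD, n = 4; log2 fold change -0.89), and Ltbp2, a latent TGF-beta binding protein related to the fibrillins, from 117 ± 3.45 to 66.5 ± 1 CPM (log2 fold change -0.81). Tnn, tenascin-N, fell by 0.80 on the log2 scale at low abundance, and Ccn5, a matricellular protein of the CCN family, rose by 1.05 from 0.844 ± 0.0415 to 1.76 ± 0.218 CPM.

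Among other proteoglycans and enzymes of glycosaminoglycan synthesis, 51 of 66 genes were tested, with 22 lower, 10 higher and a median of -0.09. The share of higher genes was close to the 19.3% of all genes tested, of which 19.6% were lower. Has2, a main hyaluronan synthase, fell from 18.4 ± 0.825 to 11.9 ± 1.48 CPM (SD, n = 4; log2 fold change -0.62), while Has1, at 1.54 ± 0.297 CPM with DMSO, was higher by 0.57 with overlapping groups. Hs6st1, a heparan sulfate sulfotransferase, fell by 0.46 on the log2 scale. Chpf2, which helps polymerise chondroitin, went up from 58.3 ± 3.27 to 109 ± 5.89 CPM (log2 fold change 0.90, edgeR adjusted p = 8.55e-13).

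Enzymes and chaperones of collagen modification, processing and crosslinking other than the members gave 16 lower and 2 higher of 27 tested. Their median was -0.11, and the shares over all genes tested were 19.6% lower and 19.3% higher. The procollagen N-proteinases Adamts3 (log2 fold change -0.82) and Adamts2 (-0.72) and the prolyl hydroxylase P3h2 (-0.51) were lower at under 10 CPM each. For P3h2 the groups overlapped (6.53 to 9.39 CPM with DMSO, 4.71 to 6.83 with 4-OI). Tgm2, the transglutaminase that crosslinks fibronectin and other matrix proteins, went from 26.9 ± 2.4 to 19.2 ± 0.216 CPM (SD, n = 4; log2 fold change -0.48, edgeR adjusted p = 8.74e-07). The higher genes were P3h3 (0.15) and Fkbp14 (0.36). Medians of the 3 lists lay nearer to that of all genes than the median of the 30 members did, and the difference between lists was not tested.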

How the data were processed

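The submitters' processing notes name STAR 2.7.8a and RSEM 1.3.3, besides cutadapt 2.3, MultiQC 1.7 and FastQC 0.11.8, and the build GRCm38, without a role or order. The sources used here state neither annotation release nor strand setting, and reads of a gene and an overlapping gene on the other strand may not be told apart: 15 of the 34 members share exon bases with another gene, 14 of them with one on the other strand. The authors deposited expected counts per gene (whole numbers in every cell), TPM and FPKM, in 3 tables of 55492 genes. Columns were matched to libraries by their descriptions and grouped by titles.

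The deposited expected counts were tested without rounding with edgeR 4.0.16 in R 4.3.3: filterByExpr (minimum count 10), TMM, two-sided quasi-likelihood F test without covariates, adjusted over 13531 genes. CPM are counts over library total times TMM factor. TPM gave levels, and TPM with limma 3.58.1 (pseudocount 1), DESeq2 1.42.0, other scalings and filters, a GC and length trend and left-out libraries were alternatives. FPKM gave the implied transcript lengths. Within a group, the variance between pairs of libraries was 1.86 to 4.46 times that of count sampling (chi-square per degree of freedom). Each library was counted once, though this excess does not show that the libraries are independent. No source says that they came from separate cultures beyond calling them separate experiments, so p-values measure only how far these samples vary, possibly for technical reasons. The procedure was tested on simulated counts in which a far smaller share of genes changed than was called here. That test therefore does not show how the procedure performs at the share called here. Positions are those of GENCODE M21. The members and lists were chosen with earlier results of these data known. All members are described, and of each list of other genes up to 4 called genes with the largest change at 1 CPM or more are named, others only to spell out counts or as examples.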

Additional observations from a re-analysis of the deposited data

Results flagged for a closer look

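In 60 checks (30 tested members in 2 groups of 4), a library stood apart from the other 3 of its group in 6, by a gap that took up most of the group's range (Dixon's ratio past its 95% critical value). Chance gives about 1 such case in 20. In 4-OI replicate 4, 4 members were low: Fn1 had 1719 CPM where the other 3 libraries had 1839 to 1862, Fbn1 had 249.7 against 269 to 271, Tnc had 253 against 267 to 269, and Hspg2 had 432 against 472 to 478. In 4-OI replicate 1, Thbs3 was high with 37.7 CPM against 34.8 to 35.2. In DMSO replicate 4, Fbln1 was low with 60.0 CPM against 62.3 to 62.7. Without 4-OI replicate 4, Fbn1, Tnc and Hspg2 were still called lower and Fn1 was still not called.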

How the results depend on the processing

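The 20 lower and 2 higher calls among the members were the same genes with RLE size factors, library totals, no low-count filter, a minimum mean of 1 CPM, DESeq2 and the GC and length correction. TPM with limma gave 18 lower, losing Vcan and Nid2. Leaving out 1 library at a time gave 20 to 21 lower and 2 to 3 higher, the additions being Efemp2 and Fbn2 without DMSO replicate 4. Leaving out DMSO replicate 3 and 4-OI replicate 4 together, a choice made after seeing the data, added Fn1 to the higher ones. No setting reversed a called member or the 5 family differences recomputed. Over all genes, TPM with limma called 1620 lower in place of 2646. Same-numbered libraries of the 2 groups deviated together weakly, if at all (correlations -0.016 to 0.070, other pairs -0.117 to 0.041). Same-numbered replicates 1 (0.069) and 2 (0.070) had the highest values. Such a check cannot exclude that the samples were paired. With the replicate number as a block, 20 members were lower and 2 higher, and 2525 and 2618 genes were higher and lower over all genes against 2607 and 2646 without it. Depth limits Eln, Mfap2 and Lum, for which no difference was detectable. It also limits Mfap5, which had 0 to 4 counts a library and whose groups were separate in CPM but not in counts.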
